A study of Mus musculus with 2 samples.

Results

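Mir122, Mir192, Mir194-1, Mir194-2 and Mir375, microRNA genes known from liver, gut and endocrine tissue, were measured in small RNA of mouse embryonic hearts. They are 5 of 1973 listed microRNA genes, found by matching stable gene identifiers to these symbols. Both libraries came from healthy embryos of strain B6NCrl at embryonic day 10.5, with males and females pooled. Replicate 1 held the hearts of 69 embryos and replicate 2 those of 51. There is 1 group, with no treatment, mutant or second tissue, so every comparison lies between genes or between the replicate libraries. Each value stands for a whole pool, so differences among embryos within a pool cannot be seen, and the spread between the libraries may in part be technical. The 5 genes were selected on their own-strand counts and replicate ratios in these libraries. Both are therefore given as descriptions, with no test.

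A microRNA gene is transcribed as a hairpin that is cut into a strand pair of about the length of a small RNA read, one from each arm (5p and 3p). The loaded strand pairs with messenger RNAs mainly through its seed, bases 2 to 8, and lowers their translation and stability. Mir122 is the main microRNA of hepatocytes. Mir192, Mir194-1, Mir194-2 and the related Mir215 are known from the epithelium of intestine and kidney. Mir375 is known from pancreatic islets, where it restrains insulin secretion, and from the pituitary and other endocrine cells. Liver, gut and pancreas arise from endoderm, and the liver bud grows out beside the heart in the embryo.

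The gut genes form a pair of loci that carry the same kinds of seed, and the sequences show which of their reads can be told apart. RefSeq sequences (GRCm38.p6, the mm10 assembly) matched 4 of the 5 genes. Mir122 had none, so whether its reads can be told apart from those of other hairpins was not checked. Mir215, which neighbours Mir194-1, was added as the remaining gene of the gut loci. The 5p strands are shown because they define the families, with the seed in capitals, 5′ to 3′.
miR-192-5p: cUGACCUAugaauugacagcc
miR-215-5p: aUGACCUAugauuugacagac
miR-194-5p: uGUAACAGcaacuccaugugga
The seed UGACCUA was shared by miR-192-5p and miR-215-5p and by no other mature strand in the table. These strands were identical at 18 of 21 bases and differed by C1A, A12U and C20A (miR-192-5p first, counted from the 5′ end). The strand miR-194-5p, with the seed GUAACAG, was the same in Mir194-1 and Mir194-2, so a read of exactly this strand matches both genes equally.

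The 3p strands of the miR-194 genes are shown because they, unlike the 5p strand, differ between the genes. Capitals mark the bases that differ.
miR-194-1-3p: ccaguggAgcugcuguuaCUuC
miR-194-2-3p: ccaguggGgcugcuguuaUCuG
They differed at 4 of 22 positions, by A8G, C19U, U20C and C22G. Of the 20-base windows in the hairpins, 45 of 48 in Mir194-1 and 64 of 67 in Mir194-2 occurred in no other of the 1005 hairpins in the table. For Mir192, Mir215 and Mir375 this held for all windows, 70, 93 and 45. Reads mapped to several places were kept out of gene counts (23.3% of reads in replicate 1 and 23.5% in replicate 2). The counts of Mir194-1 and Mir194-2 are therefore lower limits to an unknown extent, and the tables do not divide a hairpin's counts between its arms.

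Replicate 1 held 4163656 own-strand gene counts and replicate 2 held 4789068, and levels are counts per 1000000 of these (CPM). A read can span a whole mature strand, so levels were not divided by hairpin length. Per 100 bases of gene the order of the means was also Mir122, Mir375, Mir192, Mir194-2, Mir194-1, with 2464, 894, 109, 88.6 and 33.5 CPM. The labelled tissue was checked by its own microRNAs. Heart muscle genes made up 3.47% of counts in replicate 1 and 6.91% in replicate 2, with Mir208b of a myosin heavy chain intron highest at 21037 and 49967 CPM. Mir1a-1, with 17 and 15 counts in replicates 1 and 2, Mir133a-1, with 3 and 15, and Mir133a-2, with 1 and 1, were nearly without counts, although these are known as abundant in heart muscle. No hairpin sequence was available for these genes. Whether their reads match several places, and were therefore left uncounted, was not tested, so their low counts are not read as absence. Mir1a-2 was not analysed here. The 5 genes together held 0.436% of replicate 1, with an exact 95% interval of 0.430 to 0.443, and 0.0424% of replicate 2, with 0.0406 to 0.0443. All intervals here are exact 95% intervals and cover at most counting error, because there is 1 library per pool. Reads with no molecular identifiers can be copies of the same molecule, so the intervals may be too narrow.

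**Figure D1:**
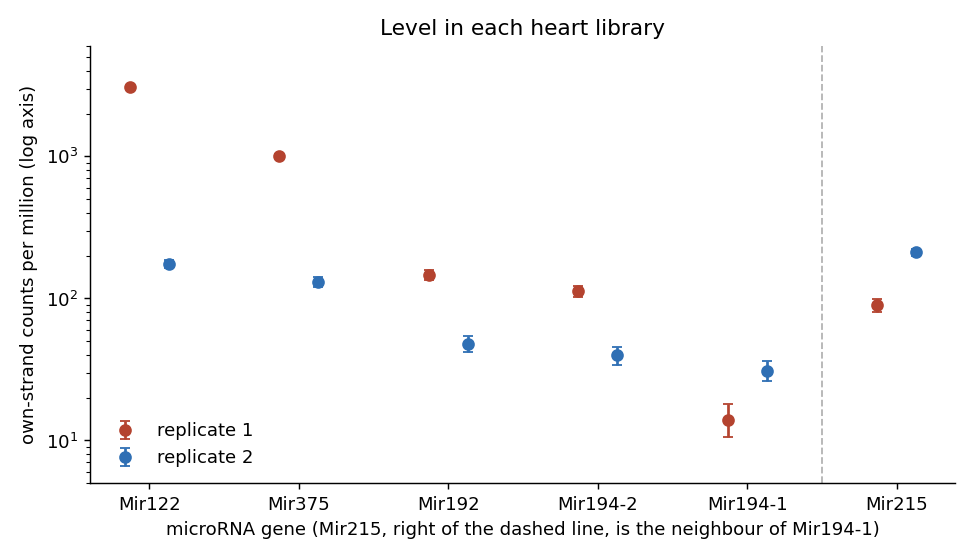
Own-strand CPM (log axis) of each gene in replicate 1 (red) and replicate 2 (blue), with exact 95% Poisson intervals as bars. Mir122, Mir375, Mir192 and Mir194-2 sit higher in replicate 1, while Mir194-1 and Mir215 sit higher in replicate 2.

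Mir122, the hepatocyte microRNA, was the most abundant of the 5 genes in both pools of hearts. It had 12817 counts in replicate 1, or 3078 CPM (3025 to 3132), and 836 counts in replicate 2, or 175 CPM (163 to 187). Replicate 1 is high and replicate 2 low, and the intervals lie far apart. Among the 1973 genes it ranked 56 in replicate 1 and 170 in replicate 2. Mir122 (ENSMUSG00000065402.1) lies on chromosome 18, 65248861 to 65248926 (mm10, plus strand), inside an exon of the long noncoding RNA gene AC157910.3. Its mean was 1626 ± 2053 CPM (SD, n = 2), so the SD exceeded the mean.

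Replicate ratios were taken as replicate 1 over replicate 2 after TMM scaling, which sets the bulk of genes level between the libraries, with 0.5 added to each count. They lie about 0.27 below ratios of CPM on the log2 scale, and more or less than that where counts are low, through the added 0.5. For Mir122 the log2 ratio was 3.87 (3.77 to 3.97), a 14.6-fold higher level in replicate 1. It was the third highest of 424 genes with at least 10 counts in a library. The heart muscle gene Mir208b exceeded Mir122 6.83-fold in replicate 1 (6.71 to 6.96) and 286-fold in replicate 2 (267 to 307).

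Mir375, the islet microRNA, was the next most abundant. It had 4219 counts in replicate 1, or 1013 CPM (983 to 1044), and 629 counts in replicate 2, or 131 CPM (121 to 142). Again replicate 1 was the high library and the intervals did not overlap. The log2 ratio was 2.67 (2.55 to 2.80), which is 6.37-fold higher in replicate 1 and the eighth highest of 424. The mean was 572 ± 624 CPM (SD, n = 2). Mir375 (ENSMUSG00000065616.2) lies on chromosome 1, 74900658 to 74900721 (minus strand), in no other annotated gene, between Cryba2 and Cfap65. Its hairpin shared no stretch of 10 or more bases with another hairpin, so no near-identical copy in that table draws on its reads.

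**Figure D2:**
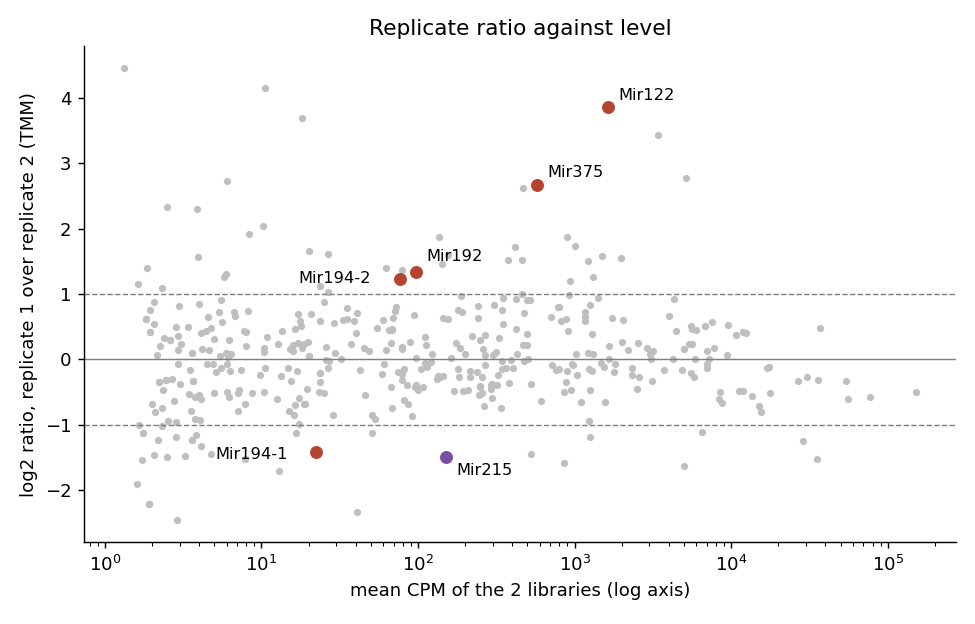
Log2 ratio of replicate 1 over replicate 2 after TMM scaling against mean CPM (log axis) for the 424 genes with at least 10 counts in a library. Dashed lines mark 2-fold. The 5 genes (red) and Mir215 (purple) lie outside the dashed lines, 4 above them, and Mir194-1 and Mir215 below.

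Mir192 and Mir194-2 lie head to tail on chromosome 19 and were both higher in replicate 1. Mir192 had 607 counts in replicate 1, or 146 CPM (134 to 158), and 229 counts in replicate 2, or 47.8 CPM (41.8 to 54.4). Mir194-2 had 469 counts in replicate 1, or 113 CPM (103 to 123), and 190 counts in replicate 2, or 39.7 CPM (34.2 to 45.7). In each of these genes the replicate intervals did not overlap. The log2 ratios were 1.33 for Mir192 (1.11 to 1.56) and 1.23 for Mir194-2 (0.99 to 1.48). Mir194-2 (ENSMUSG00000065582.1; 6264643 to 6264728) and Mir192 (ENSMUSG00000065523.1; 6264844 to 6264932) are both on the plus strand, 116 bases apart, in no other annotated gene.

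Mir194-1, on chromosome 1, went the other way. It had 58 counts in replicate 1, or 13.9 CPM (10.6 to 18.01), and 148 counts in replicate 2, or 30.9 CPM (26.1 to 36.3). The intervals did not overlap, and replicate 2 was the high library. The log2 ratio was -1.42 (-1.89 to -0.98). Mir194-1 was thus the gene of the 5 that was lower in replicate 1, with the fewest counts in both libraries. Its counts, like those of Mir194-2, are lower limits. Mir194-1 (ENSMUSG00000065581.1; chromosome 1, 185313319 to 185313385, plus strand) lies in an intron of 2010103J01Rik, on the same strand, and in an intron of Iars2, on the opposite strand.

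Its neighbour Mir215, which is not one of the 5 genes, showed the same direction as Mir194-1. Mir215 was added with earlier results of these data known and lies beside Mir194-1 on the same strand. Its direction is therefore not separate support. Mir215 had 374 counts in replicate 1, or 89.8 CPM (81.0 to 99.4), and 1009 counts in replicate 2, or 211 CPM (198 to 224). The log2 ratio was -1.503 (-1.68 to -1.33). In replicate 2 Mir215 exceeded each of the 5 genes, Mir122 included, and its interval lay above that of Mir122. Mir215 (ENSMUSG00000065562.1; chromosome 1, 185313581 to 185313692, plus strand) starts 196 bases after the end of Mir194-1, inside an exon of 2010103J01Rik and in an intron of Iars2.

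**Figure D3:**
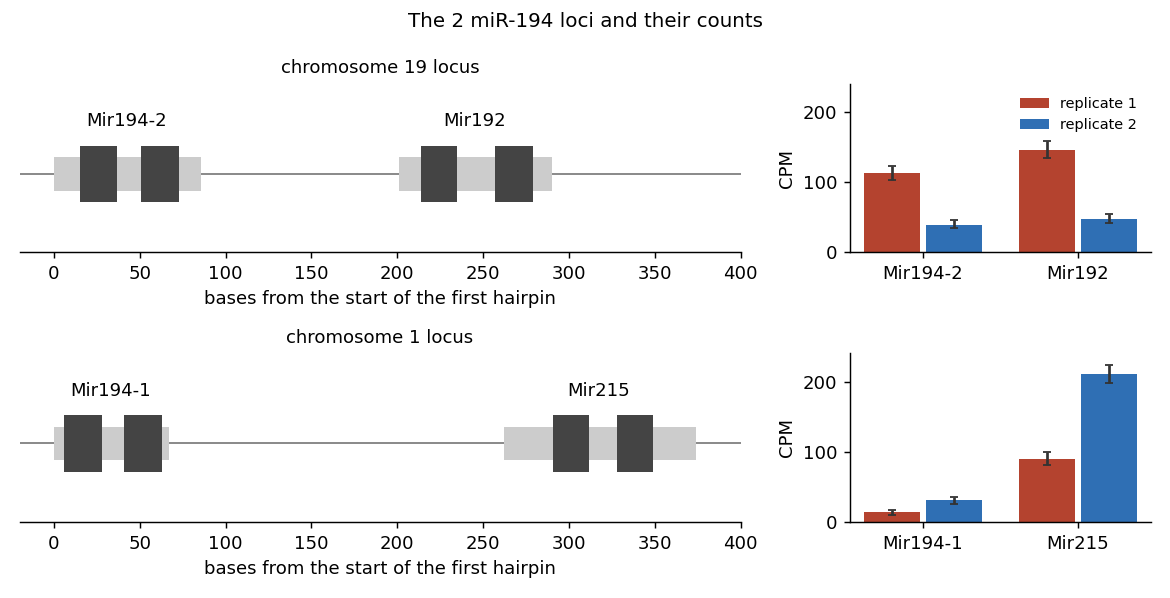
Left, the hairpins (grey) and mature strands (black) of the chromosome 19 and chromosome 1 loci, in bases from the start of the first hairpin. Right, CPM of each gene in replicate 1 (red) and replicate 2 (blue), with bars starting at 0 and exact 95% Poisson intervals: both chromosome 19 genes are higher in replicate 1 and both chromosome 1 genes in replicate 2.

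In the counted reads, the partners at each locus had similar proportions in both libraries, while the loci themselves changed places. Mir194-2 made up 43.6% of the chromosome 19 pair in replicate 1 (40.6 to 46.6) and 45.4% in replicate 2 (40.5 to 50.3). Mir194-1 made up 13.4% of the chromosome 1 pair in replicate 1 (10.4 to 17.0) and 12.8% in replicate 2 (10.9 to 14.9). Within each locus the replicate intervals overlapped, so a difference in these proportions was not detectable at this depth. Between the loci it was plain, since the chromosome 1 pair held 28.7% of the counts of both pairs in replicate 1 (26.4 to 31.0) and 73.4% in replicate 2 (71.2 to 75.6). These shares lie within a library and do not depend on the scaling between libraries.

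Summed over related genes, the loci offset each other in part. The genes with the seed UGACCUA, Mir192 and Mir215, together had 236 CPM in replicate 1 and 259 CPM in replicate 2, a log2 ratio of -0.41 (-0.53 to -0.29). With total counts as the scaling the log2 ratio of this sum was -0.13, outside that interval, so its size depends on the scaling. Mir215 held 38.1% of that sum in replicate 1 (35.1 to 41.3) and 81.5% in replicate 2 (79.2 to 83.6). The counts of Mir194-1 and Mir194-2 lack reads of exactly the shared miR-194-5p strand, and their 3p strands have different seeds, CAGUGGA and CAGUGGG, so their sum does not measure a seed family. As counted, it gave 127 CPM in replicate 1 and 70.6 CPM in replicate 2, a log2 ratio of 0.57 (0.37 to 0.77), and 0.84 with total counts. Mir194-1 held 11.01% of the miR-194 sum in replicate 1 (8.46 to 14.0) and 43.8% in replicate 2 (38.4 to 49.3). With all 4 genes together, replicate 1 had 362 CPM and replicate 2 had 329 CPM. The log2 ratio of this sum was -0.14 (-0.24 to -0.03), and 0.14 with total counts as the scaling, so its direction turns with the scaling.

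The order of levels was the same in both libraries, Mir122, Mir375, Mir192, Mir194-2, Mir194-1, but the distances between them were not. In replicate 1 the 95% intervals of all 5 genes were apart. In replicate 2 those of Mir192 and Mir194-2 overlapped, as did those of Mir194-2 and Mir194-1. Over both libraries the means of Mir192, Mir194-2 and Mir194-1 were 96.8 ± 69.3, 76.2 ± 51.6 and 22.4 ± 12.0 CPM (SD, n = 2). Unpaired, the library values of Mir122 and Mir375 overlapped, as did those of Mir375 and Mir192 and those of Mir192 and Mir194-2, while both values of Mir194-1 lay below both of Mir194-2. Within a library, where the genes share depth and scaling, the order of counts can be read more closely. Counts of Mir194-1 and Mir194-2 lack reads of exactly the shared miR-194-5p strand, so their places hold for the counted reads alone. Mir122 exceeded Mir375 3.04-fold in replicate 1 (2.93 to 3.15) and 1.33-fold in replicate 2 (1.20 to 1.48). Mir375 exceeded Mir192 6.95-fold in replicate 1 (6.38 to 7.58) and 2.75-fold in replicate 2 (2.36 to 3.21). For Mir192 over Mir194-2 the ratio was 1.29 in replicate 1 (1.15 to 1.46) and 1.21 in replicate 2 (0.99 to 1.47), an interval that takes in equal counts. The ratio of Mir122 to Mir192 was 21.1 in replicate 1 (19.5 to 22.9) and 3.65 in replicate 2 (3.15 to 4.24).

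The make-up of the 5 genes therefore differed between the libraries, and the replicate intervals of each share below did not overlap. Mir122 held 70.5% of their counts in replicate 1 (69.9 to 71.2) and 41.1% in replicate 2 (39.0 to 43.3). Mir375 held 23.2% in replicate 1 (22.6 to 23.8) and 31.0% in replicate 2 (29.0 to 33.0). The chromosome 19 genes held 5.92% in replicate 1 (5.58 to 6.28) and 20.6% in replicate 2 (18.9 to 22.4). Mir194-1 held 0.319% in replicate 1 (0.243 to 0.413) and 7.28% in replicate 2 (6.19 to 8.50). Because counts of Mir194-1 and Mir194-2 are lower limits, all these shares are those of the counted reads. In whole-heart RNA, fewer cells of a type and less RNA per cell cannot be told apart.

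**Figure D4:**
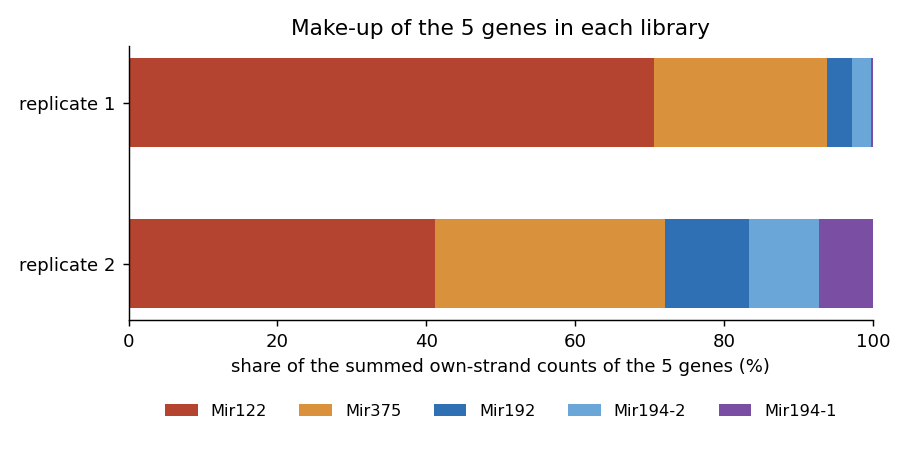
Share of each gene in the summed own-strand counts of the 5 genes, in percent, for replicate 1 (above) and replicate 2 (below). Mir122 fills 70.5% of the upper bar and 41.1% of the lower one.

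All 5 genes passed 2-fold between the libraries, 4 higher and 1 lower in replicate 1. The counting intervals of Mir194-2 (0.99 to 1.48) and Mir194-1 (-1.89 to -0.98) reached just inside 2-fold. Among the 424 tested genes 9.67% were more than 2-fold higher in replicate 1 and 7.78% more than 2-fold lower, and all 5 genes were among those tested. The genes were proposed with these ratios known, so nothing is read from the count. With total counts as the scaling, 69 tested genes were higher and 19 lower, in place of 41 and 33.

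The opposite-strand counts, which the choice of genes did not use, were close to 0 at these loci, as at most others, since 90.1% of the 424 tested genes had 0 in both libraries. Mir192, Mir194-2 and Mir375 had 0 opposite-strand counts in both libraries. Here 0 was taken to allow up to 3 counts, a simpler limit than the exact intervals. For Mir375 this allows a share of up to 0.0711% in replicate 1 and 0.477% in replicate 2, and for Mir192 up to 0.494% and 1.31%. For Mir194-2 it allows up to 0.640% in replicate 1 and 1.58% in replicate 2. Mir194-1 had 1 opposite-strand count in each library, or 1.69% in replicate 1 (0.0429 to 9.09) and 0.671% in replicate 2 (0.0170 to 3.68), on the strand of Iars2. Mir122 had 1 of 12818 counts on the opposite strand in replicate 1 and 6 of 842 in replicate 2, or 0.713% (0.262 to 1.55). Over all listed genes the opposite strand held 4.46% of counts in replicate 1 and 4.58% in replicate 2.

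The other tested microRNAs of liver, gut and pancreas were too few for their rate past 2-fold to be read closely. In the lists for liver, intestine and kidney, endocrine cells and exocrine pancreas, 10 genes besides the 5 were tested. Of these, 1 was more than 2-fold higher in replicate 1 and 1 more than 2-fold lower, or 20% against 17.5% of all tested genes, with a median log2 ratio of 0.33 against 0.01 over all tested genes. The gene that was lower was Mir215. In the liver list, Mir148a, also made in pancreas and many other tissues, had 855 CPM in replicate 1 and 898 CPM in replicate 2, with a log2 ratio of -0.35. Mir802, known from liver, pancreas and kidney, had 25 and 19 counts in replicates 1 and 2. Mir122 was thus the liver gene of 3 that passed 2-fold, and no liver gene was at 0.

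Among the endocrine genes the one more than 2-fold higher besides Mir375 was Mir7b, of the miR-7 family known from islets and pituitary. Mir7b had 45 counts in replicate 1 and 6 in replicate 2, with a log2 ratio of 2.74 (1.60 to 4.36). Its relatives Mir7-1 and Mir7-2 share a stretch of 24 bases, so part of their reads may be uncounted. Mir7-1 had 105 CPM in replicate 1 and 72.0 CPM in replicate 2, a log2 ratio of 0.26, and Mir7-2 had 32 and 16 counts, a log2 ratio of 0.91, which was 1.18 and past 2-fold with total counts. The islet and neural gene Mir153 had 94 and 63 counts in replicates 1 and 2, a log2 ratio of 0.50. Mir184, known from the eye and from islets, had 46 and 67 counts, a log2 ratio of -0.61. The exocrine pancreas genes had few counts. Mir217 had 55 counts in replicate 1 and 41 in replicate 2, Mir216b had 18 and 12, and Mir216a, which was not tested, had 9 and 1.

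MicroRNAs of other tissues moved with Mir122, Mir375 and the chromosome 19 pair, and their part in these ratios was not tested. The Hox cluster list, known from trunk and limb, held 1.79% of counts in replicate 1 and 0.205% in replicate 2. All 5 of its tested genes were more than 2-fold higher in replicate 1, led in level by Mir10a with 9250 and 1114 CPM. Among all 424 tested genes 9.67% were, and the lists were chosen with earlier results of these data known. The epithelium list held 0.707% in replicate 1 and 0.209% in replicate 2, with 6 of 7 tested genes more than 2-fold higher, led by Mir429 with 2361 and 652 CPM. The sensory organ list held 0.569% in replicate 1 and 0.163% in replicate 2, with all 3 genes more than 2-fold higher, led by Mir182 with 3077 and 867 CPM. These genes, Mir183, Mir96 and Mir182, form a cluster. Genes of a cluster can share a transcript, so the counts past 2-fold in these lists are not counts of independent genes. Of these lists, 1 listed gene, Mir196a-1, had under 10 counts in both libraries and was not tested. It shares a stretch of 22 bases with Mir196a-2, so part of the reads of both may be uncounted. None of the genes in these lists was at 0.

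Heart muscle, red blood cell and leukocyte lists are given for the same libraries. Of 5 tested heart muscle genes, none was more than 2-fold higher in replicate 1. Against 7.78% of all tested genes, 3 of the 5 were more than 2-fold lower. They were Mir208b, Mir499, also of a myosin heavy chain intron, with 868 CPM in replicate 1 and 1647 CPM in replicate 2, and Mir133a-1, on 3 and 15 counts. With total counts as the scaling Mir499 was at -0.92, and 2 of the 5 were more than 2-fold lower. Red blood cell genes made up 0.116% of counts in replicate 1 and 0.171% in replicate 2, led by Mir451a with 947 and 1509 CPM, and none of the 3 genes passed 2-fold. Their log2 ratios were -0.95 for Mir451a, -0.39 for Mir486 and -0.06 for Mir144, which was at 0.22 with total counts. Leukocyte genes made up 0.0459% of counts in replicate 1 and 0.0339% in replicate 2, and none of the 3 listed genes passed 2-fold. Mir155, with the highest mean, had 214 CPM in each library. Mir223 had 240 CPM in replicate 1 and 118 CPM in replicate 2, a log2 ratio of 0.75, and was just past 2-fold, at 1.02, with total counts. Mir142 of that list was not analysed here.

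**Figure D5:**
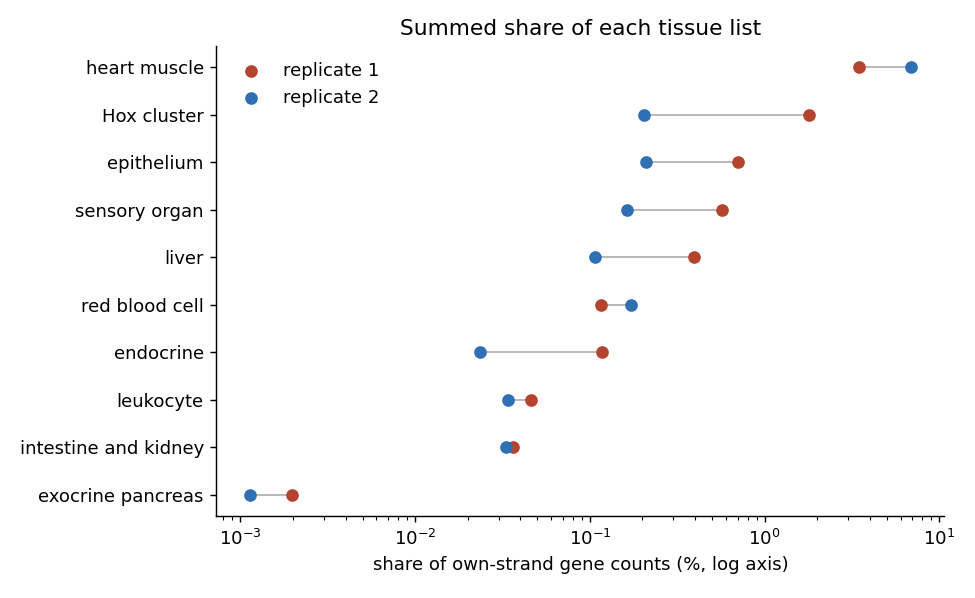
Summed share of own-strand gene counts (percent, log axis) of each tissue list in replicate 1 (red) and replicate 2 (blue). The liver, endocrine, exocrine pancreas, leukocyte, Hox cluster, epithelium and sensory organ lists are higher in replicate 1, the heart muscle and red blood cell lists in replicate 2, and the intestine and kidney list is at 0.0362% and 0.0329%. The liver list includes Mir122, with 12817 of its 16401 counts in replicate 1 and 836 of 5155 in replicate 2. The endocrine list includes Mir375, with 4219 of 4871 and 629 of 1126. Both genes were selected with their ratios known, so the direction of these 2 lists is not separate support.

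The genes with the nearest replicate ratio were looked up among 302 genes with 100 or more counts over both libraries. Likeness here is the distance between log2 ratios over 2 libraries, which is a single number per gene. Nearest to Mir122 were Mir5126 at 3.69, on 142 and 10 counts, then Mir10b at 3.44 and Mir10a at 2.78. Nearest to Mir375 were Mir615 at 2.62, Mir10a and Mir10b, which all lie in Hox clusters. Nearest to Mir192 were Mir758 at 1.36, Mir325 at 1.40 and Mir154 at 1.25.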

How the data were processed

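Small RNA of heart was sequenced in 2 libraries. The authors deposited read counts per microRNA gene, made from mm10 alignments with GENCODE M4 models, per the file headers of the deposited README notes. Neither aligner nor counting settings were given in the sources used here. The count columns carry no names: for every gene the first is the sum of the other 2, of which the one with the larger total was read as own-strand and the other as opposite-strand, which the sources used here do not state. The deposited counts carry no normalization. Rows that name no gene (58.5% and 56.4% of reads in replicates 1 and 2) were left out of totals. Symbols came from GENCODE M21 (1894 of 1973 identifiers matched), sequences from RefSeq, and Mir7a-1 and Mir7a-2 are listed as Mir7-1 and Mir7-2.

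Levels are own-strand CPM. A count of 0 allows up to 3 counts, 0.721 and 0.626 CPM in replicates 1 and 2. Ratios used edgeR 4.0.16 TMM scaling over genes with at least 10 counts in a library and a prior count of 0.5. Intervals were exact Clopper-Pearson or Poisson 95% intervals (scipy 1.17.1). Only the ratio intervals were tested, on simulated counts with known ratios and counting error alone. With 1 library per pool no significance test was made, and "passed 2-fold" means a log2 ratio beyond 1 or -1. Alternatives were total counts, DESeq2 1.42.0 size factors, both-strand counts, other totals, a prior count of 5 and other filters. The genes and lists were chosen with earlier results of these data known. Named are the 5 genes, Mir215, genes of the 4 endodermal lists, the leading gene of each other list, and the 3 nearest genes by ratio. Mir499, the Mir1a and Mir133a genes, Mir196a-1, Mir142, Mir144, Mir486 and Mir223 were named after their values were seen.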

Additional observations from a re-analysis of the deposited data

How the results depend on the processing

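The 5 genes kept their direction and their ratios stayed beyond 2-fold under each of the 6 alternatives tried. These alternatives use the same libraries, and the main counting intervals of Mir194-1 and Mir194-2 reached just inside 2-fold. Total counts as the scaling shifted the median tested gene by 0.27 (log2), and the log2 ratios became 4.14 for Mir122, 2.95 for Mir375, 1.61 for Mir192 and 1.503 for Mir194-2, outside their main counting intervals. Mir215 was at -1.23 under that scaling. With no filter on low counts, 256 of 740 genes passed 2-fold in place of 74 of 424, a set that holds many genes with few counts. With all reads as the total, which is larger, every mean level fell, to 676 CPM for Mir122, 239 for Mir375, 40.6 for Mir192, 32.0 for Mir194-2 and 9.62 for Mir194-1. Mean levels over 2 libraries are set largely by which library is read: Mir122 was 175 CPM without replicate 1 and 3078 CPM without replicate 2. No paired analysis was possible because the study has 1 group. Depth limits Mir194-1 most, with 58 counts in replicate 1. The uncounted reads of the shared miR-194-5p strand limit both miR-194 genes, to an unknown extent.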
